A study of Mus musculus with 11 samples.

Results

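The genes described here are 40 markers of cells other than B cells, listed by symbol: T cell, NK and cytotoxic, myeloid, platelet and endothelial genes. They were read on 11 arrays of mouse splenic B cells that had been enriched by depleting other cells. Members were the probe sets whose platform annotation names exactly 1 of these symbols, which gave 62 of 45101 probe sets and 39 of 18193 genes. By class the 39 comprised 14 T cell, 10 NK and cytotoxic, 10 myeloid, 3 platelet and 2 endothelial genes. Tcf7 was not analysed here. A median over probe sets stands for a gene that has several, as 13 of the 39 do, with at most 5 (Cd8a).

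The arrays are Affymetrix mouse genome chips of RNA from NOD/ShiLtJ (NOD) and NOD.NOR-Chr4/DvsJ (NR4) mice, females aged 6 weeks. NOD mice develop autoimmune diabetes, and NR4 mice share the NOD background but carry a segment of chromosome 4 from the NOR strain. Purified B cells were cultured for 2 h in medium that held goat anti-mouse IgM as F(ab')2 at 10 µg/ml (anti-IgM), which cross-links the B cell receptor, or in plain medium (unstimulated). There are 2 arrays of NOD anti-IgM, 3 of NOD unstimulated, 3 of NR4 anti-IgM and 3 of NR4 unstimulated cells. Each strain had 3 lots of 7 to 8 pooled spleens, so an array averages over several animals and both cultures of a strain draw on the same lots. Titles number the replicates 1 to 3, with 4 arrays numbered 1, 4 numbered 2 and 3 numbered 3, since there is no NOD anti-IgM array numbered 3. The labels do not say that a number marks a lot.

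A negative depletion removes cells by antibodies to surface proteins of other lineages, and the cells that stay behind contribute their own RNA to the pool. T cells are known by the CD3 chains that carry the antigen receptor's signal, and NK and cytotoxic T cells by granule proteins such as granzymes and perforin. Monocytes, macrophages and granulocytes are known by lysozyme, the CSF1 receptor and the S100A8 and S100A9 proteins, platelets by their granule chemokines, and endothelium by VE-cadherin and the VEGF receptor. All deposited values are differences on a log2 scale from each probe set's median over the 11 arrays. No level or detection call can thus be read, for B cell genes or for these markers, and how many other cells each preparation held is not measured here. In such bulk samples, fewer cells of a type and less RNA per cell cannot be told apart.

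The members differed widely in how much they varied. Over the 11 arrays the SD of all genes had a median of 0.183 (log2). Gzma, a granule protease, had the widest spread of the members with an SD of 0.771, followed by Cd3g (0.674), Ccl5 (0.611), Klrk1 (0.501) and Nkg7 (0.488). At the other end were the complement chain genes C1qc (0.090), C1qb (0.105) and C1qa (0.123), granzyme B (Gzmb, 0.096) and the integrin gene Itgam (0.105). The low spreads lie at or below the 21.5th percentile of all genes, and the 5 wide ones at or above the 97.7th. Without levels, a small spread does not tell a steady transcript from one at background.

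**Figure D1:**
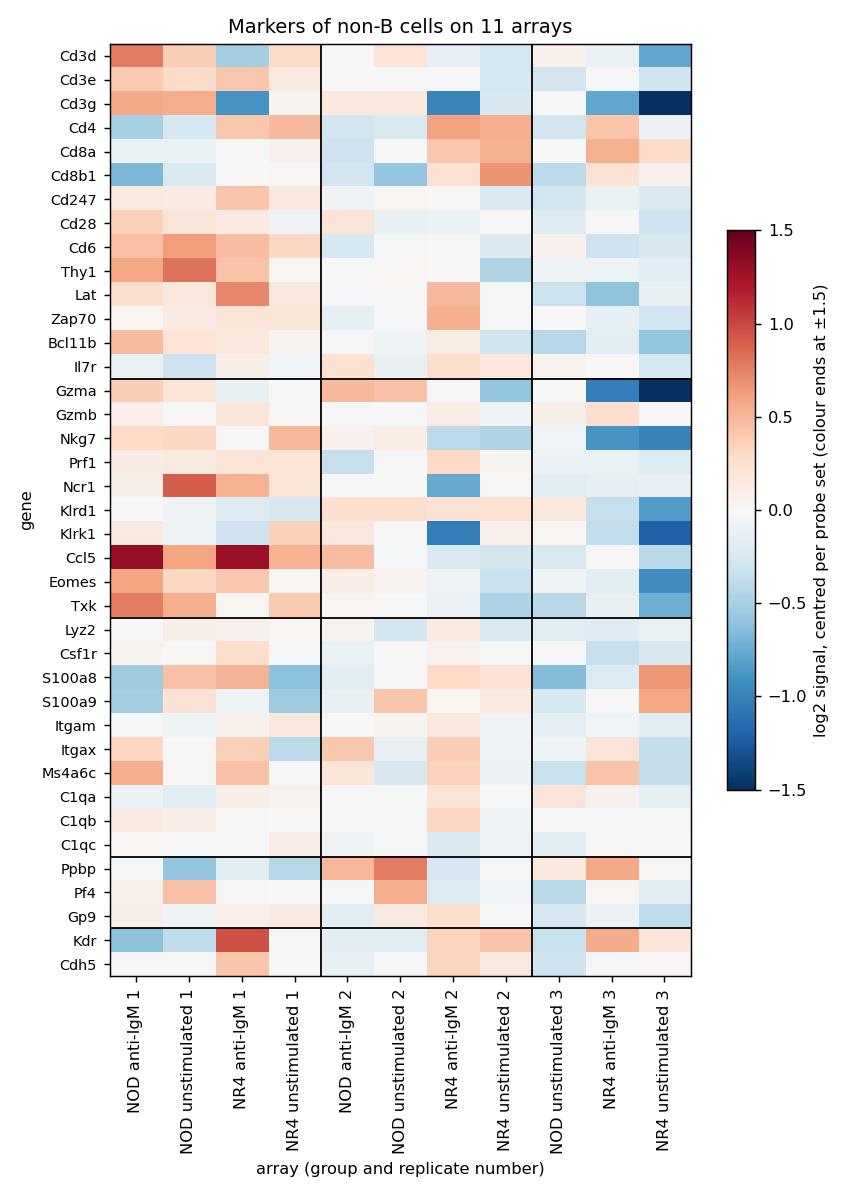
Values of the 39 measured members on each of the 11 arrays, as log2 signal centred per probe set; genes run down the page by class and arrays across by group and replicate number, with the colour scale ending at ±1.5. The lowest values gather on NR4 unstimulated array 3, where Gzma stood at -2.10, Cd3g at -1.49 and Klrk1 at -1.21.

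Replicate numbers differed in T and NK genes, with strain and culture held in the model. That fit took the 11 arrays as independent, without a lot block, although both cultures of a strain draw on the same lots. If a number marks a lot, its p-values rest on fewer independent units than arrays. Arrays numbered 1 were higher than arrays numbered 3 in 11 members, 6 of 14 T cell genes and 5 of 10 NK and cytotoxic genes, by 0.42 to 1.05 on the log2 scale. No member was lower, and no myeloid, platelet or endothelial member passed the test. A limma F-test over the 3 numbers, with group as covariate and Benjamini-Hochberg adjustment over all genes at 0.05, called 9 of 39 members (23.1%), against 6.84% of all 18193 genes. For number 1 minus number 3 the share was 28.2% of members, where 13.8% of all genes were called, 8.45% as higher and 5.33% as lower. Replicate number 1 minus 2 gave 2 members, Cd6 and Ccl5 (5.13%), where 0.951% of all genes were called. Number 2 minus number 3 gave 0 members and 0 genes by limma (0%), with 9 members and 2639 genes at an unadjusted p under 0.05. All these shares are of members chosen with earlier results of these data known.

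The balance of direction over all genes depended on the scaling. As deposited, 1537 genes were higher and 969 lower on arrays numbered 1 than on those numbered 3, with a median difference of 0.075 over all genes. After quantile normalization the figures were 759 higher and 1122 lower, with a median of 0.017. The members' direction did not turn: 8 of them were then called, all among the 11, and the F-test called 3 (Ccl5, Cd6 and Eomes).

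Among the T cell members, Cd6, a surface receptor of T cells, gave the most even separation by number. In the order NOD anti-IgM, NOD unstimulated, NR4 anti-IgM, NR4 unstimulated, which is kept below, Cd6 stood at 0.45, 0.63, 0.46 and 0.31 on the arrays numbered 1. It stood at -0.26, -0.012, 0 and -0.22 on those numbered 2, and at 0.068, -0.31 and -0.24 on those numbered 3, where NOD anti-IgM is missing. Each array numbered 1 lay above all 7 others. The difference was 0.65 (SE 0.09, limma adjusted p = 0.0060) for number 1 minus 3 and 0.59 (SE 0.08, adjusted p = 0.030) for number 1 minus 2.

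Cd3e encodes a CD3 chain of the T cell receptor complex. It measured 0.39, 0.29, 0.41 and 0.15 on the arrays numbered 1, against 0, 0.0072, -0.002 and -0.26 on those numbered 2 and -0.29, -0.0032 and -0.30 on those numbered 3. Again the 4 arrays numbered 1 lay above the rest, and number 1 minus 3 was 0.48 (SE 0.08, limma adjusted p = 0.011). Cd247, the zeta chain of the same complex, measured 0.15, 0.12, 0.42 and 0.15, then -0.047, 0.025, -0.0074 and -0.22, then -0.29, -0.096 and -0.22 on the arrays numbered 1, 2 and 3. Its 4 arrays numbered 1 were likewise the highest, by a smaller margin, with a difference from number 3 of 0.42 (SE 0.09, adjusted p = 0.022). These values are medians of 4 probe sets, and only 1 of the 4 by itself kept the arrays numbered 1 above all others. The other CD3 chains, Cd3d and Cd3g, lie beside Cd3e on chromosome 9 and did not pass, at 0.40 (SE 0.24, adjusted p = 0.29) and 0.68 (SE 0.26, adjusted p = 0.11). Their NR4 anti-IgM arrays were below 0 at every number. For numbers 1, 2 and 3 these stood at -0.52, -0.13 and -0.096 for Cd3d, and at -0.88, -0.99 and -0.78 for Cd3g.

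Thy1, the CD90 surface protein, stood at 0.58, 0.82, 0.43 and 0.034 on the arrays numbered 1, against 0, 0.034, -0.006 and -0.45 on those numbered 2 and -0.066, -0.072 and -0.16 on those numbered 3. NR4 unstimulated array 1 was the one numbered 1 that lay among the others. Number 1 minus 3 was 0.53 (SE 0.12, limma adjusted p = 0.026). Bcl11b, a transcription factor of the T cell lineage, measured 0.48, 0.21, 0.16 and 0.056, then -0.033, -0.061, 0.11 and -0.30, then -0.43, -0.16 and -0.58 on the arrays numbered 1, 2 and 3. All 3 arrays numbered 3 were low, and NR4 anti-IgM array 2 was above NR4 unstimulated array 1. The difference between numbers 1 and 3 was 0.57 (SE 0.10, adjusted p = 0.012). Of its 4 probe sets 1 was not low on the arrays numbered 3, at 0.18, 0.17 and 0.028.

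Lat, the adaptor phosphorylated below the T cell receptor, measured 0.25, 0.17, 0.72 and 0.17 on the arrays numbered 1. On the arrays numbered 2 it stood at -0.025, -0.0006, 0.49 and 0, and on those numbered 3 at -0.33, -0.60 and -0.11. Numbers 1 and 3 did not overlap, but NR4 anti-IgM array 2 reached the range of number 1. The difference of 0.71 (SE 0.18, limma adjusted p = 0.035) kept its call in only 2 of the 11 fits that each left out 1 array.

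In the NK and cytotoxic class, Ccl5, a chemokine of T and NK cells, had the smallest p in the F-test over numbers (limma adjusted p = 0.012). It stood at 1.31, 0.59, 1.28 and 0.52 on the arrays numbered 1, at 0.47, -0.018, -0.23 and -0.28 on those numbered 2, and at -0.23, 0 and -0.40 on those numbered 3. The arrays numbered 1 were the 4 highest, with NOD anti-IgM array 2 next. Number 1 exceeded number 3 by 0.99 (SE 0.15, limma adjusted p = 0.0066) and number 2 by 0.94 (SE 0.13, adjusted p = 0.030).

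Eomes encodes a T-box transcription factor of NK and CD8 T cells. Its values were 0.59, 0.31, 0.40 and 0.031, then 0.094, 0.058, -0.076 and -0.33, then -0.077, -0.17 and -0.93 on the arrays numbered 1, 2 and 3. All number 3 arrays were below 0 and all number 1 arrays above it, a difference of 0.66 (SE 0.12, limma adjusted p = 0.012). Txk, a Tec-family kinase of T and NK cells, gave 0.77, 0.54, 0.025 and 0.39, then 0.028, 0, -0.083 and -0.46, then -0.42, -0.11 and -0.74. NR4 anti-IgM array 1 lay among the arrays numbered 2, and number 1 minus 3 was 0.77 (SE 0.17, adjusted p = 0.022).

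Nkg7, a granule membrane protein, measured 0.30, 0.31, 0 and 0.49 on the arrays numbered 1, then 0.059, 0.11, -0.39 and -0.45 on those numbered 2, and -0.046, -0.88 and -1.0 on those numbered 3. Numbers 1 and 3 did not overlap and differed by 0.88 (SE 0.18, limma adjusted p = 0.018). Gzma measured 0.37, 0.19, -0.11 and 0, then 0.49, 0.44, 0 and -0.59, then 0.0006, -1.03 and -2.10 on the arrays numbered 1, 2 and 3. Here the low values were those of the 2 NR4 arrays numbered 3, and NR4 anti-IgM array 1 was itself below NOD unstimulated array 3. The difference of 1.05 (SE 0.27, adjusted p = 0.037) was the largest of the 11, with number 1 minus 2 at 0.03. It kept its call in only 3 of the 11 fits that each left out 1 array, ranging from 0.66 to 1.40.

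**Figure D2:**
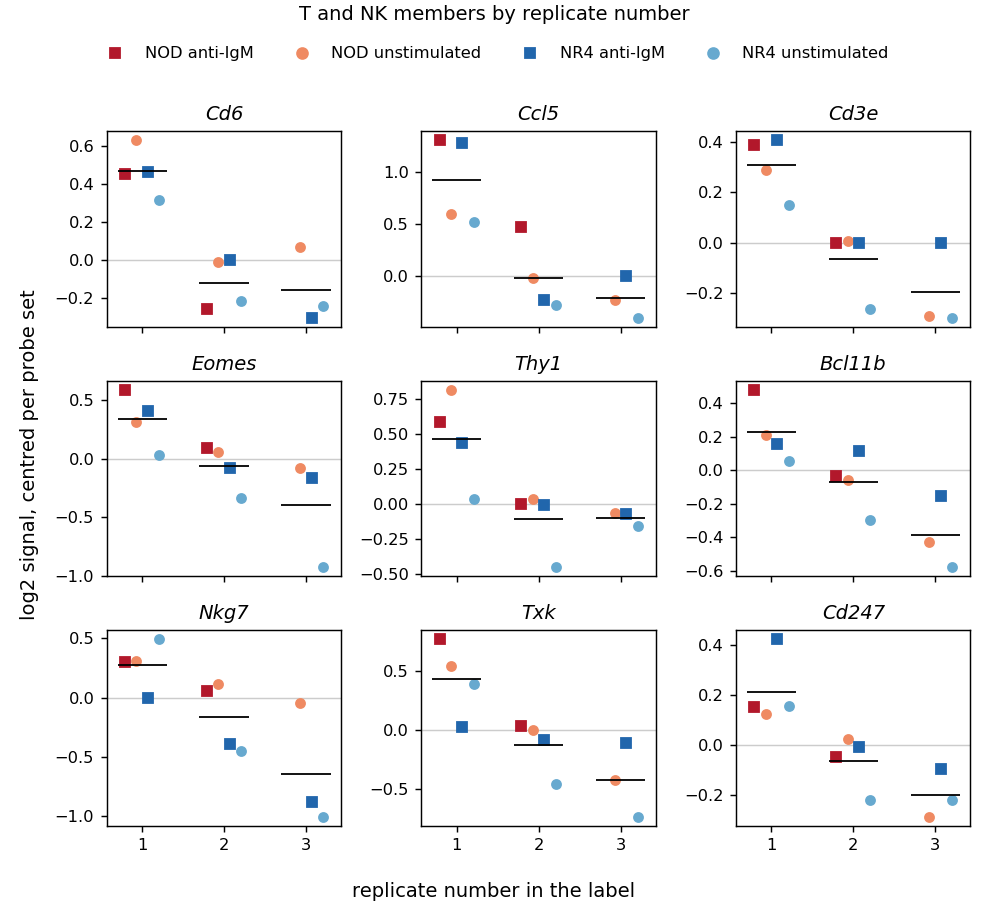
Log2 signal, centred per probe set, of T and NK members by replicate number; each point is 1 array with its strain and culture marked, and the black lines are means over the arrays of a number. For Cd6, Cd3e, Cd247 and Ccl5 the 4 arrays numbered 1 lie above the 7 others. Cd247 is the median of 4 probe sets, of which 1 alone shows this.

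Among the other NK members, the activating receptor Ncr1 (0.59, SE 0.22, limma adjusted p = 0.11) and perforin (Prf1, 0.36, SE 0.11, adjusted p = 0.058) were positive for number 1 minus 3 without passing. Klrd1 and Klrk1, receptor genes that neighbour each other on chromosome 6, were at 0.18 and 0.47, and Gzmb at -0.05. Of the T cell members that did not pass, Il7r, Cd8a and Cd8b1 had negative differences, from -0.04 to -0.22. Cd8a rested on probe sets that disagreed, since 1 of the 5 fell by 0.66 (SE 0.14, adjusted p = 0.026 over all probe sets) while the remaining 4 were between -0.51 and 0.23. Taken by probe set, the called members numbered 15, with Zap70, Prf1 and Ms4a6c added as higher and Cd8a as lower.

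Within each of the 3 groups that have both arrays, array 1 was above array 3 for 21 of 39 members (53.8%), where 33.5% of all genes did the same. For 2 members, Cd8a and Ppbp (5.13%), array 1 was below array 3 in every such group, against 16.5% of all genes. The 21 comprised 8 of 14 T cell members, 7 of 10 NK, 5 of 10 myeloid, 1 of 3 platelet and 0 of 2 endothelial members. The class medians of number 1 minus 3 were 0.41 for T cell members, 0.62 for NK, 0.12 for myeloid, 0.34 for platelet and 0.13 for endothelial members, beside 0.075 for all genes. B cell genes, a list of 16 with Cd79a and Ms4a1 among them, had a median of -0.063 and 0 called (10 of 16 negative).

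Array by array, the T cell class median was 0.30, 0.18, 0.17 and 0.11 on the arrays numbered 1, against -0.029, 0, 0.057 and -0.11 on those numbered 2 and -0.13, -0.084 and -0.25 on those numbered 3. The numbers did not overlap in this median between 1 and the others. The NK median was 0.22, 0.25, 0.10 and 0.20, then 0.077, 0, -0.08 and -0.17, then -0.062, -0.15 and -0.79. NR4 unstimulated array 3 was the lowest, and 13 of the 24 T and NK members had their lowest value there. By contrast 15 of the 24 had their highest value on an array numbered 1.

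**Figure D3:**
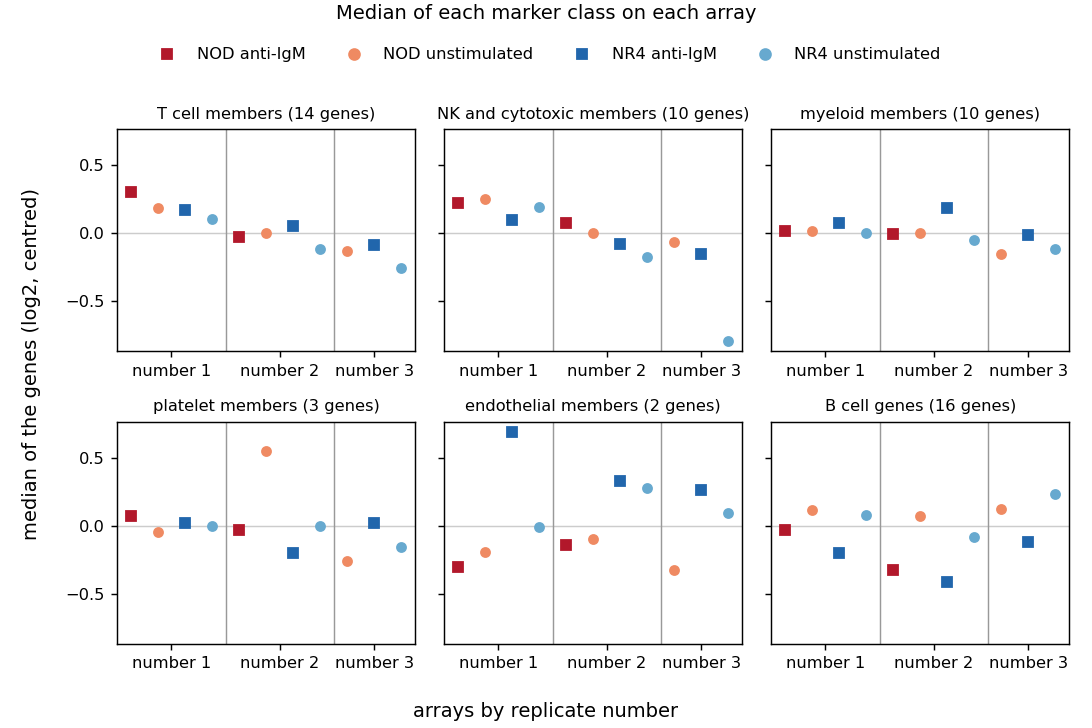
Median of each marker class on each array (log2, centred per probe set), arrays arranged by replicate number and marked by group. The T and NK medians are highest on arrays numbered 1, and the NK median reaches -0.79 on NR4 unstimulated array 3.

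Other genes of these lineages, from lists that do not include the members, were read the same way for number 1 minus 3. Over all genes 8.45% were higher and 5.33% lower. Like the members, these lists were chosen with earlier results of these data known, so they are not an independent reading. Of 19 other T cell genes 5 were higher and 0 lower, among them the costimulatory receptor Cd27 (1.21, SE 0.16, limma adjusted p = 0.0048) and Ms4a4b (0.59, SE 0.11, adjusted p = 0.013). Of 23 other NK and cytotoxic genes 8 were higher and 0 lower, led by the death ligand Fasl (1.00, SE 0.13, adjusted p = 0.0043), with the lysosomal protein genes Cst7 (0.59) and Ctsw (0.89) and the receptor chain Il2rb (0.75). Of 26 other monocyte, macrophage and dendritic cell genes 3 were higher and 3 lower. The Fc receptor Fcgr3 (0.64) was among the higher, and the iron exporter Slc40a1 (-0.87), the phosphatidylserine receptor Timd4 (-0.93) and Ms4a7 (-0.40) were the lower. Neutrophil genes (16) and plasma cell genes (8) had 0 called. Platelet genes had 2 of 12 higher (Clec1b and Gng11), erythroid genes 1 of 11 higher (Rhd), other endothelial genes 2 of 16 higher (Vwf and Eng) and 1 lower (Emcn). Stromal genes had 2 of 12 lower (Lum and Col3a1), and basophil and mast cell genes 1 of 7 higher (Hdc) and 2 lower (Cpa3 and Ms4a2).

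RNA quality was read from the 3' minus 5' difference of the β-actin and Gapdh control probe sets, centred like all others. NR4 anti-IgM array 1 stood at 0.956 and the other 4 anti-IgM arrays between 0.042 and 0.231. NR4 unstimulated array 3, which held many of the lowest T and NK values, stood at 0.289, and the other 5 unstimulated arrays between -0.079 and -0.007. The part of RNA quality in the results by number was not tested beyond leaving out arrays. Without NR4 anti-IgM array 1, 12 members were called for number 1 minus 3. Without NR4 unstimulated array 3 there were 6, and without NOD unstimulated array 3 there were 5. The count was 6 without NR4 anti-IgM array 3 and 7 without NOD or NR4 unstimulated array 1. The 2 calls of number 1 minus 2 were both lost without any 1 of 8 arrays, and the F-test called 0 to 10 members over these fits. For number 1 minus 3, Cd6, Ccl5 and Eomes stayed called whichever 1 of the 11 arrays was left out, and Cd3e failed only without NOD unstimulated array 3. On the 6 unstimulated arrays alone 6 members were called (Bcl11b, Ccl5, Cd3e, Cd6, Eomes and Txk), and on the 6 NR4 arrays alone 0, where no gene of the 18193 was called either.

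To show the genes that moved together by number, promoter sequences of the first 4 of the 9 members called by the F-test that the RefSeq table (GRCm38.p6) holds are printed, 250 bases before to 50 after the start. They are Cd3e (chr9:45009562-45009861, minus strand), Eomes (chr9:118477939-118478238, plus strand), Bcl11b (chr12:108003365-108003664, minus strand) and Nkg7 (chr7:43436888-43437187, plus strand). Capitals mark matches on either strand to 3 words that T and NK transcription factor families are known to bind: TGTGGT (RUNX), AGGAAG (ETS) and GGTGTG (T-box).
Cd3e: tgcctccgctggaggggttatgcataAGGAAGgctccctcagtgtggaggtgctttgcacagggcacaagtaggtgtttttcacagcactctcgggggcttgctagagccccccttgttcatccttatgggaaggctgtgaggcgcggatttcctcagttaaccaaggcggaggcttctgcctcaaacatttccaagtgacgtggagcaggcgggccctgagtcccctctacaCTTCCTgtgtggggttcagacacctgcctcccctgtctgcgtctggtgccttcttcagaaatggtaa
Eomes: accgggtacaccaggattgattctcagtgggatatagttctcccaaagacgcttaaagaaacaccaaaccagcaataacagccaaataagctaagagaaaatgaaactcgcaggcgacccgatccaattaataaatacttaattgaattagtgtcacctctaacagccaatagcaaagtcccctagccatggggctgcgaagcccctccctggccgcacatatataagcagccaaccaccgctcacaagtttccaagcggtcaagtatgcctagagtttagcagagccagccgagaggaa
Bcl11b: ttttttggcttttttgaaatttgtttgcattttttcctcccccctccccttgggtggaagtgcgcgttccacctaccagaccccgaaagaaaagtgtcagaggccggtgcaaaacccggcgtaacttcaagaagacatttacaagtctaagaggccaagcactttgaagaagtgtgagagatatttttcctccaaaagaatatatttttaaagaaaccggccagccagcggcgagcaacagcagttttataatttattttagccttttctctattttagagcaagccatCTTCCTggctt
Nkg7: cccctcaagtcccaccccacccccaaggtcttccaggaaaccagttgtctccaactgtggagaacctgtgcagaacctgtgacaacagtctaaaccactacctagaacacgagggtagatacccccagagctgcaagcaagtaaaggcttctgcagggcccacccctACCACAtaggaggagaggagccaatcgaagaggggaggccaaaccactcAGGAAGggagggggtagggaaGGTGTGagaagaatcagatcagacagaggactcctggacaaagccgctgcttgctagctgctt
The ETS word stands in the Cd3e promoter at -224 and -17 from the start, in Bcl11b at 40 after it and in Nkg7 at -34. Nkg7 also holds the RUNX word at -83 and the T-box word at -13. The Eomes window holds none of the 3. Over all 32851 promoter windows the RUNX word occurs in 16.8%, the ETS word in 35.4% and the T-box word in 19.0%. Among the 33 windows of 29 members the counts were 16, 19 and 7, and among the 7 windows of the 6 members called by the F-test that have one, 2, 5 and 2. A match is only a description of these letters. Cd6, Ccl5 and Thy1 are not in the table used.

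The myeloid members showed little by number. Ms4a6c, an MS4A-family membrane protein gene of monocytes and macrophages, had the smallest p of the class in the F-test (limma adjusted p = 0.18), with 0.26 (SE 0.10, adjusted p = 0.11) for number 1 minus 3. Csf1r, the receptor for the growth factor CSF1, measured 0.043, 0.0066, 0.26 and 0 on the arrays numbered 1, against -0.10, 0, 0.058 and 0 on those numbered 2 and 0, -0.35 and -0.24 on those numbered 3. Its highest and its lowest value were both on NR4 anti-IgM arrays, and the difference was 0.29 (SE 0.11, adjusted p = 0.10). Lysozyme (Lyz2) measured 0, 0.087, 0.064 and 0.024, then 0.051, -0.28, 0.14 and -0.23, then -0.18, -0.19 and -0.094, with all arrays numbered 3 below those numbered 1 (0.18, SE 0.11, adjusted p = 0.29). Itgam, the CD11b chain, measured 0.0078, -0.067, 0.07 and 0.15, then 0, 0.045, 0.16 and -0.052, then -0.14, -0.04 and -0.16 on the arrays numbered 1, 2 and 3. These numbers overlapped, and number 1 minus 3 was 0.16 (SE 0.09, adjusted p = 0.23).

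S100a8 and S100a9, neighbours on chromosome 3 whose products form calprotectin, passed no test of number, strain or culture. S100a8 ranged from -0.65 on NOD unstimulated array 3 to 0.65 on NR4 unstimulated array 3, and S100a9 from -0.54 on NR4 unstimulated array 1 to 0.59 on NR4 unstimulated array 3. The 3 complement chains C1qa, C1qb and C1qc, the only measured members on chromosome 4, had strain differences of -0.07, 0.01 and -0.01.

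Platelet genes did not move as a class. Ppbp, an alpha-granule chemokine precursor, measured -0.019, -0.58, -0.16 and -0.42 on the arrays numbered 1, then 0.50, 0.78, -0.25 and 0 on those numbered 2 and 0.15, 0.57 and 0.014 on those numbered 3. Its difference had the opposite sign to those of the called T and NK genes, at -0.63 (SE 0.24, limma adjusted p = 0.11) for number 1 minus 3. Gp9, a subunit of the von Willebrand factor receptor, measured 0.088, -0.047, 0.07 and 0.14, then -0.17, 0.14, 0.27 and 0, then -0.25, -0.091 and -0.39, a difference of 0.34 (SE 0.11, adjusted p = 0.068). Pf4, next to Ppbp on chromosome 5, ranged from -0.40 to 0.55.

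Between the strains no member passed the test. That fit too took the arrays as independent, although both cultures of a strain draw on the same lots. NOD minus NR4, averaged over cultures, called 0 of 39 members by limma, where 0.121% of all genes (22 genes) were called, 0.055% as higher and 0.066% as lower, and 8 members and 799 genes had an unadjusted p under 0.05. The co-receptor genes Cd4, Cd8a and Cd8b1 and the endothelial receptor gene Kdr had the most negative differences, and Cd3g and Gzma the most positive. These genes were singled out after their values were seen.

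Cd4, the co-receptor of helper T cells, stood at -0.50 and -0.29 in NOD anti-IgM and at -0.25, -0.23 and -0.28 in NOD unstimulated cells. In NR4 it stood at 0.40, 0.60 and 0.41 with anti-IgM and at 0.49, 0.55 and -0.089 unstimulated. All 5 NOD arrays lay below all 6 NR4 arrays, the lowest of which was NR4 unstimulated array 3. The difference was -0.72 (SE 0.12, limma adjusted p = 0.072), and with the replicate number as a block it was -0.76 (SE 0.10, adjusted p = 0.025), which passes. Without NR4 unstimulated array 3 it was -0.82 (adjusted p = 0.0033). The only other setting that called Cd4 left out the genes of lowest SD. With strain and number taken as the lot, as a random block, Cd4 was not called. Its 2 probe sets gave -0.62 and -0.82. Only the first kept the strains apart, and NR4 unstimulated array 3 stood at 0.28 there. On the second that array stood at -0.46 and NR4 anti-IgM array 1 at 0, both within the NOD range of -0.60 to 0.055.

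Cd8b1, a chain of the cytotoxic T cell co-receptor, measured -0.67 and -0.28 in NOD anti-IgM and -0.23, -0.58 and -0.40 in NOD unstimulated cells, against 0, 0.23 and 0.21 in NR4 anti-IgM and 0.019, 0.67 and 0.065 in NR4 unstimulated cells. The strains did not overlap, at a difference of -0.64 (SE 0.14, limma adjusted p = 0.27). Its neighbour on chromosome 6, Cd8a, overlapped between strains and differed by -0.42 (SE 0.12, adjusted p = 0.64), with its 5 probe sets between -0.81 and -0.16. Kdr, the VEGF receptor of endothelium, measured -0.62 and -0.16 in NOD anti-IgM and -0.38, -0.16 and -0.33 in NOD unstimulated cells, against 0.96, 0.34 and 0.55 in NR4 anti-IgM and 0, 0.42 and 0.18 in NR4 unstimulated cells. All NOD arrays were again below all NR4 arrays (-0.75, SE 0.14, adjusted p = 0.12). Cdh5, VE-cadherin of endothelial junctions, measured 0.012 and -0.11 in NOD anti-IgM and 0, -0.033 and -0.31 in NOD unstimulated cells, against 0.42, 0.33 and -0.028 in NR4 anti-IgM and -0.0098, 0.14 and 0.013 in NR4 unstimulated cells. It overlapped between the strains (-0.22, SE 0.10).

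Cd3g had a strain difference of 1.02 (SE 0.25, limma adjusted p = 0.41) while Cd3e, its close neighbour, differed by 0.10 (SE 0.14) and Cd3d by 0.55 (SE 0.20, adjusted p = 0.97). Cd3g stood at 0.56 and 0.16 in NOD anti-IgM and 0.54, 0.16 and 0 in NOD unstimulated cells, against -0.88, -0.99 and -0.78 in NR4 anti-IgM and 0.04, -0.24 and -1.49 in NR4 unstimulated cells. NR4 unstimulated array 1 lay within the NOD range, and the strains did not overlap with anti-IgM. Gzma was above 0 on all NOD arrays and at or below 0 on all NR4 arrays, by a margin of 0.0006 at the closest (0.96, SE 0.34, adjusted p = 0.94).

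In all, NOD and NR4 arrays did not overlap for 3 members that were lower in NOD (7.69%, where 0.264% of all genes did so). Cd4 is among them only as the median of its 2 probe sets. They did not overlap for 1 member that was higher in NOD (2.56%, against 0.335%). The NK members were positive in 8 of 10, with a median of 0.37 where that of all genes was 0.001. Of the T cell members 7 of 14 were positive (median 0.048). As no NOD anti-IgM array is numbered 3, strain and number are not balanced in this fit. With the replicate number as a block, Gzma was at 0.79 and Nkg7 at 0.41, against 0.96 and 0.52 without it. The NK members all moved down with the block, except Gzmb, which went from -0.055 to -0.0425. Within unstimulated cells NOD minus NR4 called 0 members by limma (0.0605% of all genes, 0.0385% as higher), with 5 members and 281 genes at an unadjusted p under 0.05. All 10 NK members were positive there, and NR4 unstimulated array 3, where the NK median was -0.79 and the control difference 0.289, enters that comparison. The part of that array in this count of signs was not tested. With anti-IgM it called 0 members (0.0495% of all genes), with 5 members and 790 genes at an unadjusted p under 0.05.

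**Figure D4:**
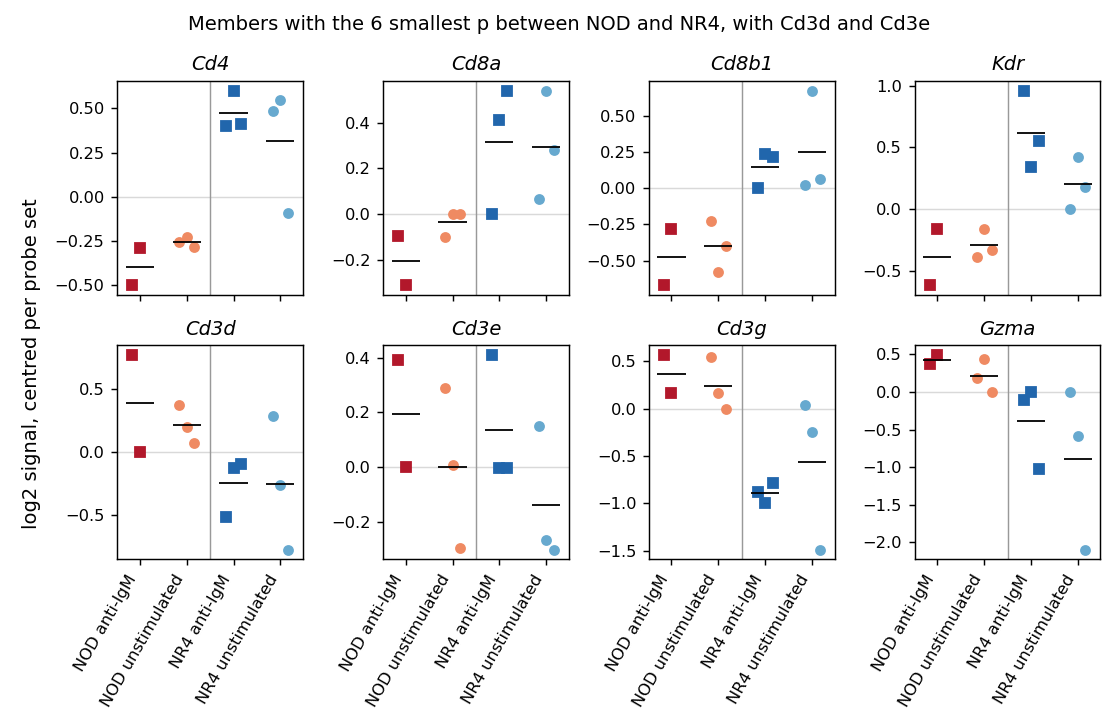
Log2 signal, centred per probe set, of the 6 members with the smallest p between strains and of Cd3d and Cd3e, by group; each point is 1 array and each line a group mean. Cd4, Cd8b1 and Kdr lie lower on all 5 NOD arrays than on all 6 NR4 arrays, Cd4 as the median of 2 probe sets of which 1 overlaps. Cd3g (1.02) and Cd3e (0.10), both CD3 chains, differ in how far the strains are apart.

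After 2 h of anti-IgM, 2 myeloid members rose and none fell. Averaged over strains, limma called Itgax and Ms4a6c, 5.13% of members, where 1.56% of all genes were called, 0.715% as higher and 0.841% as lower. No T cell, NK, platelet or endothelial member was called. The class medians lay between 0.060 (myeloid) and 0.144 (endothelial), beside 0.003 for all genes. The missing NOD anti-IgM array 3 leaves number and culture unbalanced here too, and the medians were not computed with the number in the model.

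Itgax encodes CD11c, an integrin chain of dendritic cells that some B cells also carry. It stood at 0.31 and 0.41 in NOD anti-IgM against 0, -0.13 and -0.066 in NOD unstimulated cells, and at 0.35, 0.37 and 0.20 in NR4 anti-IgM against -0.40, -0.051 and -0.36 in NR4 unstimulated cells. All 5 anti-IgM arrays lay above all 6 unstimulated arrays. The difference was 0.50 (SE 0.08, limma adjusted p = 0.017), and it lost its call without NOD unstimulated array 2 or either NOD anti-IgM array, with adjusted p up to 0.099.

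Ms4a6c stood at 0.55 and 0.18 in NOD anti-IgM against 0.022, -0.24 and -0.33 in NOD unstimulated cells, and at 0.43, 0.34 and 0.43 in NR4 anti-IgM against -0.0005, -0.089 and -0.35 in NR4 unstimulated cells. Here too the cultures did not overlap, NOD anti-IgM array 2 being the closest. The difference was 0.55 (SE 0.10, limma adjusted p = 0.027) and kept its call in 3 of 11 fits that each left out 1 array. Its 2 probe sets gave 0.55 each, with adjusted p of 0.22 and 0.010 over all probe sets. Arrays with and without anti-IgM did not overlap, in the higher direction, for these 2 members (5.13%) and for 1.38% of all genes. In the lower direction it was 0 members and 2.26% of all genes. The 3' minus 5' difference of the control probe sets moved with culture too, from 0.042 to 0.956 on the 5 anti-IgM arrays, against -0.079 to 0.289 on the 6 unstimulated arrays. Without NR4 anti-IgM array 1, the highest in that measure, Itgax was at 0.49 (adjusted p = 0.036) and Ms4a6c at 0.54 (adjusted p = 0.057), and the part of RNA quality was otherwise not tested.

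Within NOD the response called 0 members by limma (0.115% of all genes), with 2 members and 937 genes at an unadjusted p under 0.05. Itgax was at 0.42 there and Ms4a6c at 0.55. Within NR4 it called 0 members (0.412% of all genes), with 4 members and 1752 genes at an unadjusted p under 0.05. There Itgax was at 0.58 (adjusted p = 0.065) and Ms4a6c at 0.55 (adjusted p = 0.16), and with the replicate number as a block both passed, with adjusted p of 0.037 and 0.045. The interaction of strain and culture called 0 members and 0 genes by limma (0%), with 0 members and 255 genes at an unadjusted p under 0.05.

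Of the 26 other monocyte, macrophage and dendritic cell genes, 0 were called for the averaged response, with a median of 0.056. Of the 16 B cell genes 5 fell and 0 rose (median -0.311). Cd37 fell by 0.54, Ms4a1 by 0.51, Cd79b by 0.62 and Cd22 by 0.99. Pecam1 was the only called one of 16 other endothelial genes, at -0.97 (SE 0.17, limma adjusted p = 0.023). The list did not fall with it, as 10 of the 16 were positive and 6 negative (median 0.018).

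**Figure D5:**
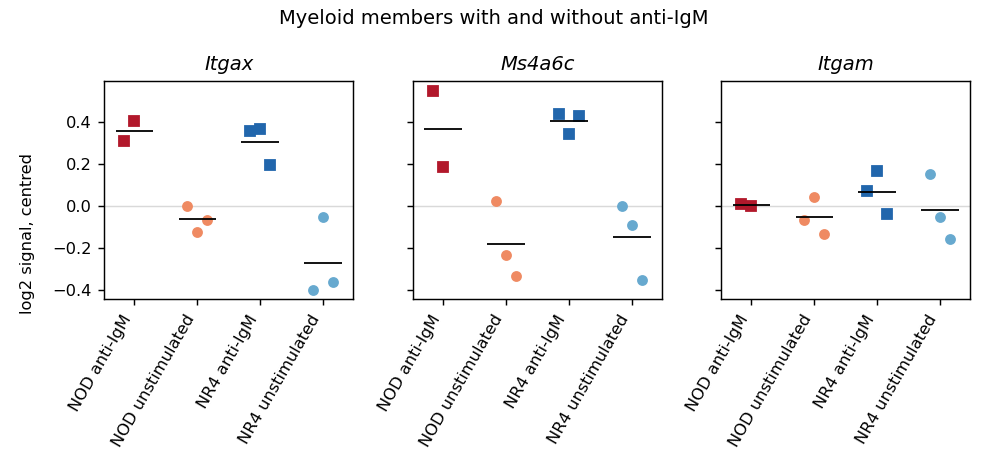
Log2 signal, centred per probe set, of Itgax, Ms4a6c and, as a myeloid member that was not called, Itgam by group; each point is 1 array and each line a group mean. All anti-IgM arrays lie above all unstimulated arrays for Itgax and Ms4a6c, from 0.18 upward against 0.022 and below for Ms4a6c.

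The promoter windows of these responding genes are printed for the same words, from RefSeq (GRCm38.p6): Itgax at chr7:128129300-128129599 and Ms4a6c at chr19:11469118-11469417, both on the plus strand.
Itgax: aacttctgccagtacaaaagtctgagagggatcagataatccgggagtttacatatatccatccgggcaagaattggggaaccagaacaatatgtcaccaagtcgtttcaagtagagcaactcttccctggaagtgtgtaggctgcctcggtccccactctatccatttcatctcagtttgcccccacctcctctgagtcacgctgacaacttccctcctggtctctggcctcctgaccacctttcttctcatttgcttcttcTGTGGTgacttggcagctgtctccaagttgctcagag
Ms4a6c: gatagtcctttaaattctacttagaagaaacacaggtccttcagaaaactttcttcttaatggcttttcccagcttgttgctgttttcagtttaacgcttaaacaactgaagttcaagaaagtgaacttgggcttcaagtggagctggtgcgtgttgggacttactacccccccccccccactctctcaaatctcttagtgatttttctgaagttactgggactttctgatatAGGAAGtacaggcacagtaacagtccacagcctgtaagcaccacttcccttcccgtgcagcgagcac
Itgax holds the RUNX word 14 bases after the start, and Ms4a6c the ETS word at -17. No other of the 3 words occurs in either window.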

How the data were processed

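The deposited table holds RMA values, per the submitters' processing notes, taken here as log2 although the base is not stated. Each of the 45101 deposited probe sets has a median of 0 over the 11 arrays, so the values had also been centred, a step the labels do not mention. Array medians lay between -0.0011 and 0.022, and no 2 arrays held identical values (0 pairs). Precision is limited by how few arrays there are. The software is not given in the sources used here.

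Groups and replicate numbers came from the sample titles. Of the probe sets, 34945 named 1 gene in the platform annotation, 932 several, 9160 none and 64 were controls. Through Entrez identifiers 99.4% of the first kind matched RefSeq genes, with 0 symbols changed. Probe sets of a gene were combined by their median. A linear model of 4 group means was fitted over 18193 genes on the 11 arrays (7 residual degrees of freedom, 5 with the replicate number) with limma 3.58.1 in R 4.3.3, with empirical Bayes moderation and two-sided Benjamini-Hochberg adjusted p-values at 0.05. The steps were tested on simulated data.

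The members and the 11 further gene lists were chosen with earlier results of these data known. Members called in a comparison are described on every array, as are the 4 with the smallest p for the replicate number in each class (2 for platelet and endothelial genes). Of each further list at most 4 called genes were to be named with values.

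Correlations of the deviations of same-numbered arrays were 0.59, 0.21 and 0.51 between unstimulated NOD and NR4, and 0.33, 0.22 and 0.47 between stimulated and unstimulated NR4. NOD anti-IgM has 2 pairs only: 0.63 and 0.12 with NOD unstimulated arrays, 0.37 and -0.12 with NR4 anti-IgM arrays. Arrays of different numbers were not correlated, so these values cannot show whether the numbers pair the arrays, and the labels do not say it. Alternatives were the replicate number or the lot within strain (correlation 0.344) as a block, other choices of probe set, quantile and median scaling, a filter on genes of low SD, robust moderation and leaving out each array. Fits on unstimulated arrays and on NR4 arrays alone were added after seeing the data.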

Additional observations from a re-analysis of the deposited data

How the results depend on the processing

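The counts of called members moved as follows, and the cause was not tested except where fewer arrays or genes entered. The strain difference averaged over cultures (0 members) gave 1, Cd4, with the replicate block and 1, Cd4, without the genes of lowest SD, and 0 to 1 leaving out each array, the 1 being Cd4 without NR4 unstimulated array 3. With anti-IgM the strain difference gave 0 to 1, again Cd4 without that array. The averaged response (2) gave 1 with the lowest-numbered probe set, Itgax, and 0 to 2 leaving out each array: 0 without NOD unstimulated array 2 or either NOD anti-IgM array, and 1, Itgax, without NOD unstimulated array 3, NR4 unstimulated arrays 2 or 3 or NR4 anti-IgM arrays 1 or 3. The NR4 response (0) gave 2 with the replicate block and 2 with the lot as a random block, Itgax and Ms4a6c, and 0 to 1 leaving out each array, the 1 being Itgax without NR4 unstimulated array 2. Number 1 minus 2 (2 members) gave 0 to 4 leaving out each array, with 4 without NR4 anti-IgM array 2 and 0 without any 1 of the 5 NOD arrays or 3 NR4 unstimulated arrays; it gave 0 on unstimulated arrays and 0 on NR4 arrays alone. Number 1 minus 3 (11) gave 5 to 15 leaving out each array, 6 on unstimulated arrays and 0 on NR4 arrays alone. Without NOD unstimulated array 1 or NR4 unstimulated array 1 it gave 7, without NOD unstimulated array 3 it gave 5, and without NR4 unstimulated array 3 or NR4 anti-IgM array 3 it gave 6. The F-test over numbers (9) gave 3 after quantile normalization, 4 on unstimulated arrays, 0 on NR4 arrays and 0 to 10 leaving out each array, with 0 without NR4 unstimulated array 1 and 1 without NOD unstimulated array 1, 2 without NOD unstimulated array 3 or either NOD anti-IgM array, 3 without NOD or NR4 unstimulated array 2, 4 without NR4 unstimulated array 3 or NR4 anti-IgM array 3 and 5 without NR4 anti-IgM array 1. The replicate block changed no other call of a member. In the settings read by gene, no called difference changed sign. Nor did the averaged strain differences of the 6 members with the smallest p between strains. Differences near 0 could change sign, as that of C1qb between strains did, from 0.0075 to -0.0048 with the replicate block.

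Counts over all genes also moved. Those by probe set are of 34945 probe sets, those with the filter of 13644 genes and the main counts of 18193 genes. A larger count by probe set is thus not a larger share by itself. The averaged strain difference (22 genes) gave 37 with the replicate block, 12 with the lot block, 37 by probe set and 12 to 21 leaving out each array, the unstimulated one (11) 18 by probe set, and the anti-IgM one (9) 4 to 10. The averaged response (283) gave 558, 756 and 495 under the same settings and 76 to 273 leaving out each array. The NOD response (21) gave 52 with the replicate block, 91 with the lot block, 9 after quantile normalization and 0 to 25 leaving out each array, and the NR4 response (75) gave 229, 353, 16 and 21 to 50. Number 1 minus 2 (173) gave 280 by probe set, 79 after quantile normalization (39 higher and 40 lower, against 117 and 56 as deposited), 113 with arrays centred, 348 with the filter, 110 with robust moderation, 0 to 568 leaving out each array, and 0 on unstimulated or NR4 arrays alone. Number 1 minus 3 (2506) gave 4144 by probe set and 676 to 4022, number 2 minus 3 (0) gave 1 by probe set, and the F-test (1244) gave 2066 by probe set, 108 to 2786 leaving out each array and 641 on unstimulated arrays. Array number and centring, which hides background, limit what these data resolve.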
